A study of Mus musculus with 3 samples.

Results

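Smooth muscle cells and pericytes of the mouse atrium were chosen from sorted single cells by the transcripts that each cell barcode held. A barcode was kept if it had 1000 or more UMIs (unique molecular identifiers, which count transcripts), 500 or more detected genes and no more than 20% of its UMIs from mitochondrial genes. It became a member if it had under 20 UMIs per 10000 of the neuronal genes Snap25, Prph and Stmn2, and fewer than 4 detected genes among the 6 fibroblast genes Col1a1, Col1a2, Dcn, Pdgfra, Lum and Col3a1. It also needed a UMI in at least 3 of the 8 gate genes Acta2, Myh11, Tagln, Cnn1, Notch3, Kcnj8, Abcc9 and Cspg4. Of 7091 kept barcodes, 152 (2.14%) met the rule. The levels of these 17 genes chose the members, so they are given below as a description, with no test.

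The mice were adult and of genotype Baf53b-cre;lox-GFP. Cre from the neuronal Baf53b (Actl6b) gene switches on GFP in them, and cells were sorted for fluorescence to collect intrinsic cardiac neurons. There are 3 libraries of the 10x Chromium 3′ kit: 1 from anterior atrial ganglia (labelled 3 months of age), 1 from posterior ganglia (4 months) and 1 of pooled ganglia, called mixed here, whose label gives no region (2 months). Genotype and the use of both sexes are shared by all libraries, and the protocol names 10 mice without saying how they were divided. With 1 library per region, region, labelled age and library cannot be told apart.

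Smooth muscle cells and pericytes are the mural cells of blood vessels. Smooth muscle cells ring arteries and veins and contract through smooth muscle actin and myosin, under the transcription factor SRF and its coactivator myocardin. Pericytes lie on capillaries, carry little of the contractile apparatus, and in mice are marked by the KATP channel subunits Kcnj8 and Abcc9. Signalling through the receptor Notch3 maintains both.

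Total depth was 55329380 anterior, 86391988 posterior and 119825307 mixed UMIs. Members were shallower than the kept cells as a whole, with medians of 5591, 7399 and 5217.5 UMIs in the anterior, posterior and mixed library, against 25028, 18399 and 51078.5 over all kept cells. Pairs of libraries shared 2 or 3 barcodes, none of them a member. No doublets were removed: the caller Scrublet marked 6, 4 and 12 kept anterior, posterior and mixed cells and no member, a share too low for it to have worked. The reporter eGFP was a feature of the mixed matrix and had 0 UMIs in the members there. It had only 326 UMIs in all mixed barcodes, so its presence in the members was not detectable at this depth.

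The members made up 1.33% of kept anterior cells (27 of 2029, exact 95% interval 0.879 to 1.93), 1.41% of posterior cells (37 of 2624, 0.995 to 1.94) and 3.61% of mixed cells (88 of 2438, 2.90 to 4.43). These intervals, and all others here, cover counting error only. These are shares of sorted and filtered cells and do not describe the tissue. Cells were then split by UMIs: contractile with more Myh11 than Kcnj8 plus Abcc9, pericyte with the reverse, undetermined where equal. There were 140 contractile cells (92.1% of members), with 22 anterior, 33 posterior and 85 mixed cells. There were 10 pericytes, with 4 anterior, 4 posterior and 2 mixed cells.

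The 2 undetermined barcodes did not share a profile. The anterior one had 0 Acta2 and 0 Myh11 UMIs among 16351 UMIs, of which 11.5% were mitochondrial, and held 881 of the 887 Nppa UMIs of all anterior members. Nppa encodes atrial natriuretic peptide of cardiomyocytes, so this barcode goes against the name of the set. A mixed contractile barcode of 16441 UMIs, 11.3% of them mitochondrial, had 116 Acta2 UMIs but 1 Myh11 UMI, and held 857 of 858 Myl7 and 205 of 209 Tnni3 UMIs of the mixed members. Cardiomyocyte markers were also detected more widely: at least 3 of 10 were found in 11 anterior, 14 posterior and 8 mixed members. The markers include Tnnt2 and Actc1, which were high in a set of posterior contractile cells without Tnni3 or Nppa UMIs, described below. Cells of that kind numbered 9 posterior, 3 mixed and 0 anterior. The part of cardiomyocyte RNA in the counted members was not tested.

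Among the 152 members, 11 had 3 gate genes detected, 40 had 4, 50 had 5, 37 had 6, 13 had 7 and 1 had all 8. Just inside the gate, the 4 anterior, 1 posterior and 6 mixed cells with 3 gate genes had 31.5, 0 and 7515 CPM of Acta2 (UMIs per 1000000 UMIs of the cells summed). Just outside, the 6 anterior, 5 posterior and 1 mixed cells with 2 gate genes had 396, 20.9 and 0 CPM. The limit on fibroblast genes ran through cells with high Acta2. The 12 anterior, 22 posterior and 51 mixed members with 3 fibroblast genes had 22776, 15755 and 24099 CPM, and the 2, 2 and 11 cells excluded with 4 such genes had 20090, 5128 and 28620 CPM. In all, 85 of 152 members had 3 of the 6 fibroblast genes and 22 had none.

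Contractile cells carried the smooth muscle genes at high level in every library. Acta2, smooth muscle actin, had a median of 114.5 UMIs per anterior cell (range 16 to 318), 86 per posterior cell (5 to 282) and 96 per mixed cell (1 to 429). Myh11, smooth muscle myosin heavy chain, had medians of 21.5, 26 and 12 UMIs, and the actin-binding protein gene Tagln 78, 93 and 64. The libraries overlapped throughout for these genes. Acta2 and Myh11 were detected in all 140 contractile cells, Tagln in 139 and the calponin gene Cnn1 in 116. Of the markers shared with pericytes, Notch3 was detected in 49 of the 140 and Cspg4, the NG2 proteoglycan gene, in 73.

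The 10 pericytes differed from this in most gate genes, though not in all. Kcnj8 was detected in 9 (0 to 8 UMIs), Abcc9 in 9 (0 to 9) and Notch3 in 9 (0 to 8). Cnn1 was at 0 in all 10, Myh11 had 1 UMI in each of 2 cells, and Acta2 reached 5 UMIs at most. Tagln was detected in 5 of the 10, among them all 4 posterior cells with 2 to 7 UMIs each. Cspg4 was detected in only 3, and its pooled level was lower than in contractile cells, at 88.8 against 165 CPM. Beyond the gate, Rgs5, a regulator of G protein signalling typical of pericytes, had 24 to 35 UMIs in the anterior cells, 21 to 31 in the posterior and 9 in each of the mixed cells. The receptor gene Pdgfrb was detected in all 10, and Steap4, a metalloreductase gene, in 9. The pericyte name thus rests on several genes that did not enter the gate, in 10 cells.

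**Figure D1:**
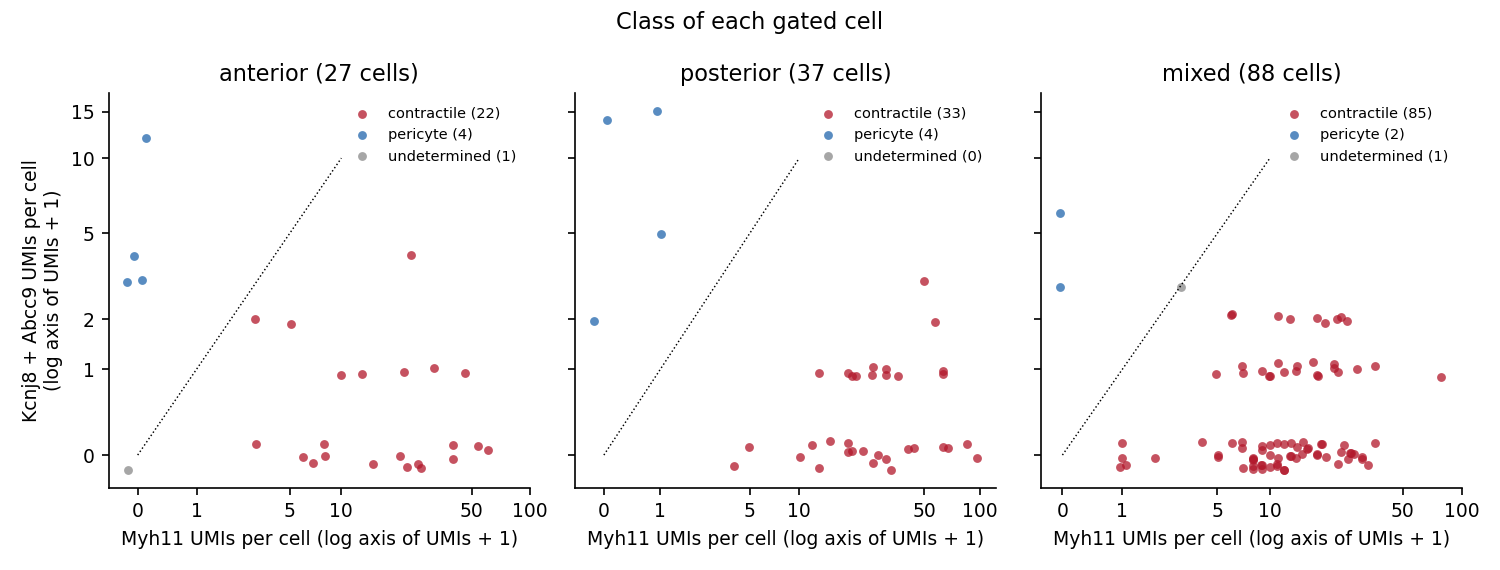
Myh11 UMIs (x axis) against Kcnj8 plus Abcc9 UMIs (y axis) in each member, in the anterior, posterior and mixed library, both as log axes of UMIs + 1 with slight jitter. The dotted line is equality, the class limit: 140 contractile cells lie below it and 10 pericytes above it, with no pericyte nearer than 2 UMIs and 6 contractile cells within 2 UMIs.

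Depth sets how many cells show a gene, so shares were also taken after each cell was thinned to 1000 UMIs. Notch3 was then detected in 17.1% of contractile cells (11.3 to 24.4) and 80% of pericytes, against 0.850% of fibroblast-gated cells and 0.145% of neurons. Without thinning the contractile share was 35% and the neuronal share 0.235%, although neurons had median depths of 34849 to 56660 UMIs. For Kcnj8 the thinned share was 2.14% in contractile cells (0.444 to 6.13), 60% in pericytes and 1.42% in fibroblast-gated cells (0.461 to 3.27). Both genes entered the gate, and Kcnj8 also the class split, so their shares describe how the cells were chosen. For Rgs5, which entered neither, the thinned shares were 15.7% in contractile cells, 100% in pericytes and 0.567% in fibroblast-gated cells.

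The 15 genes that led the members over the other kept cells, ranked by the lowest ratio of the 3 libraries, were Acta2, Tagln, Tpm2, Myl9, Myh11, Mylk, Ppp1r14a, Flna, Itga8, Mustn1, Lmod1, Rbpms, Cnn1, Des and Csrp2. They include 4 gate genes, and the ranking is a description of the chosen cells. Tpm2, which encodes a tropomyosin, had 5088 CPM in anterior, 6199 in posterior and 5508 in mixed members, against 3.94, 4.26 and 6.01 CPM in other kept cells. Myl9, the regulatory light chain of smooth muscle myosin, had 4052, 4377 and 5094 CPM against 4.47, 3.88 and 6.25 CPM. Mylk encodes the kinase that phosphorylates this light chain, and had 830, 2116 and 1024 CPM against 0.913, 2.32 and 1.28 CPM.

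Many smooth muscle genes are driven by SRF through the CArG box, and the promoters of the contractile genes were searched for it. Windows from 250 bases before to 50 after each annotated start were read from RefSeq on GRCm38.p6. Only the strict CArG box was sought, which is CC, then 6 bases that are each A or T, then GG. It reads the same on both strands, and boxes 1 base away from it were not counted. Of 27025 genes with a window, 488 (1.81%) held it in at least 1 window. Among contractile apparatus genes, 4 of the 21 with a window did, and none of the 6 gate genes, 16 pericyte genes or 9 fibroblast markers with a window. The gate genes Tagln and Myh11 were not searched. A window without the strict box can still hold a near match. The Acta2 window has ccctatatgg and ccttgtttgg, each 1 base away from the strict box. The 4 windows follow, 5′ to 3′ on the gene's strand, with the box in capitals, because they belong to contractile genes high in these cells. They lie at chr2:156775214-156775513 (Myl9, plus strand), chr10:128492960-128493259 (Myl6, minus, 1 of its 2 annotated starts), chr10:79988350-79988649 (Cnn2, plus) and chr14:20929148-20929447 (Vcl, plus), and the box begins at -161, -50, -56 and -227 from the start site. A match describes these letters and is not a binding site.
Myl9: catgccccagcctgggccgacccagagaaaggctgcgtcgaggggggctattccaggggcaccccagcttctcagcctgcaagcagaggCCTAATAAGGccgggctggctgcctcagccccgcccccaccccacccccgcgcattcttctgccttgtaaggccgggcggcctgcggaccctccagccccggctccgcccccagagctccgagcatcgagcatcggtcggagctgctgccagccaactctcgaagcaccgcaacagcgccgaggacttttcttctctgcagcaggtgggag
Myl6: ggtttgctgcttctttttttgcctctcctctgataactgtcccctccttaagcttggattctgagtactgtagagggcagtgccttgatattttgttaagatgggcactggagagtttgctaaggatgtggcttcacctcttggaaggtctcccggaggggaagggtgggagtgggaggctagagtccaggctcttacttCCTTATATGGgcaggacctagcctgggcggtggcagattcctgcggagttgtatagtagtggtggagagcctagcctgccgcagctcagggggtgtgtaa
Cnn2: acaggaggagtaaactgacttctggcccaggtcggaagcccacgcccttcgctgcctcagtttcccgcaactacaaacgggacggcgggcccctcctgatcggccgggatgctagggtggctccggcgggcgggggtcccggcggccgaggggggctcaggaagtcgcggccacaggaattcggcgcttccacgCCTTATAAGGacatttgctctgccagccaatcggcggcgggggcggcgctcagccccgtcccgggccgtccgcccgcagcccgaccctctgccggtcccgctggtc
Vcl: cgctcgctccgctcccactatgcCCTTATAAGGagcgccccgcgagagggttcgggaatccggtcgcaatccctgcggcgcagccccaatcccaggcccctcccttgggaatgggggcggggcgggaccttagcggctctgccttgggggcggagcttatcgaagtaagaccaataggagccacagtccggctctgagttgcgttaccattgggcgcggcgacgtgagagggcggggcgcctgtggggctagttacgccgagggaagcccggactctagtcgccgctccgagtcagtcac

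Contractile cells and pericytes could not be tested against each other, because no library had 5 pericytes. Their UMIs were pooled over libraries instead. Rgs5 was at 375 CPM in contractile cells and 5219 in pericytes, and Pdgfrb, the receptor for PDGF-B that recruits mural cells, at 98.2 and 866 CPM. Steap4 had 5.03 CPM in contractile cells and 1110 in pericytes, where 20, 27 and 3 of its UMIs came from the anterior, posterior and mixed cells. Vtn, the vitronectin gene, had 0 UMIs in 140 contractile cells and 19 UMIs in 6 of 10 pericytes. Colec11 and Higd1b, both listed as pericyte genes, had 6.29 and 30.2 CPM in contractile cells, against 378 CPM each in pericytes.

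Other genes of that list were shared. Gucy1a1 and Gucy1b1, the subunits of the nitric oxide receptor, had 566 and 335 CPM in contractile cells, against 688 and 489 CPM in pericytes. Mcam, an adhesion molecule, had 292 CPM in contractile cells and 311 in pericytes. The elastin gene Eln had 1051 CPM in contractile cells and 0 UMIs in pericytes, Actg2 (visceral smooth muscle actin) 648 CPM and 0, and Ramp1, a subunit of the CGRP receptor, 443 CPM and 0. Fabp4, a fatty acid binding protein of capillary cells, had 310 CPM in contractile cells and 7839 in pericytes. Endothelial RNA was present beside it: at least 3 of 10 endothelial markers were detected in 2 anterior and 1 posterior pericyte, which held 310 of the 353 pericyte UMIs of Fabp4 and 3 to 24 UMIs of the endothelial cadherin gene Cdh5. The other 7 pericytes had 1 to 13 Fabp4 UMIs per cell, or 2085 CPM, and 0 Cdh5 UMIs. Rgs5 had 3359 CPM in the 3 barcodes and 7420 CPM in the other 7.

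To describe what sets contractile cells apart from another stromal class, they were compared with 353 fibroblast-gated cells (at least 4 of the 6 fibroblast genes, under 3 gate genes; 86 anterior, 179 posterior, 88 mixed). UMIs were summed per library and class, and the 6 sums were fitted with edgeR's quasi-likelihood test with library as a block, leaving the 17 rule genes and mitochondrial genes out of the test. Both classes were gated on markers, and genes expressed with those markers are not independent of the gate. The counts below therefore describe the gated sets. Values given below with an SE are fitted log2 fold changes, contractile over fibroblast-gated. Of 8780 genes, 849 (9.67%) were higher in contractile cells and 1076 (12.3%) lower at an edgeR adjusted p under 0.05. The fibroblast-gated sums also hold mesothelial RNA (Msln at 55.4, 84.3 and 384 CPM in the anterior, posterior and mixed library) and, in the posterior library, macrophage RNA (C1qb at 40.3 CPM), and their part in the lower genes was not tested.

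The contractile apparatus was higher throughout: 22 of 22 genes passed, none lower, with a median log2 fold change of 3.95 against -0.08 over all genes tested. Lmod1, which nucleates actin filaments, had 1336, 1106 and 675 CPM in anterior, posterior and mixed contractile cells, against 0, 1.49 and 13.3 CPM in fibroblast-gated cells. Actg2 had 483, 1379 and 336 CPM, against 0 UMIs in all 3 fibroblast sums, which makes it at least 469-fold higher when a floor of 3 counts is set over the pooled libraries. The smallest change of the list was that of Pdlim7, a PDZ and LIM domain protein gene, at 1.86 (SE 0.21). With contractile cells limited to the 7, 5 and 23 that had fewer than 2 of the 6 fibroblast genes, Pdlim7 and Cnn2 no longer passed, nor did the matrix gene Col18a1 and the pericyte gene Steap4. Of the 4 genes with a CArG box in the windows above, Myl9 was at 6.61, above the list's median, and Vcl, Myl6 and Cnn2 were at 3.04, 2.83 and 2.02, below it.

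Transcription factors of mural cells were divided, with 5 of 19 higher and 4 lower. Myocd, the myocardin gene, had 98.3, 159 and 92.9 CPM in contractile cells and 0 UMIs in fibroblast-gated cells (at least 81.1-fold higher). Mef2c was higher by 2.34 (SE 0.25) and Tbx2 by 2.84 (SE 0.49). Meox1, a homeobox gene on the same list, was at 0 in contractile cells and at 132, 94.8 and 208 CPM in fibroblast-gated cells, at least 33.0-fold lower. Tcf21, a fibroblast factor of the heart, was lower, at -3.18 (SE 0.31). Srf itself did not pass, with 8.19, 22.7 and 39.8 CPM in contractile cells against 7.91, 7.46 and 13.3 CPM. Of 8 Notch pathway genes tested, the target genes Hey2 (4.35, SE 0.61) and Heyl (1.45, SE 0.25) were higher, Heyl at -0.10 with fewer than 2 fibroblast genes allowed, and the receptors Notch1 and Notch2 did not pass.

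**Figure D2:**
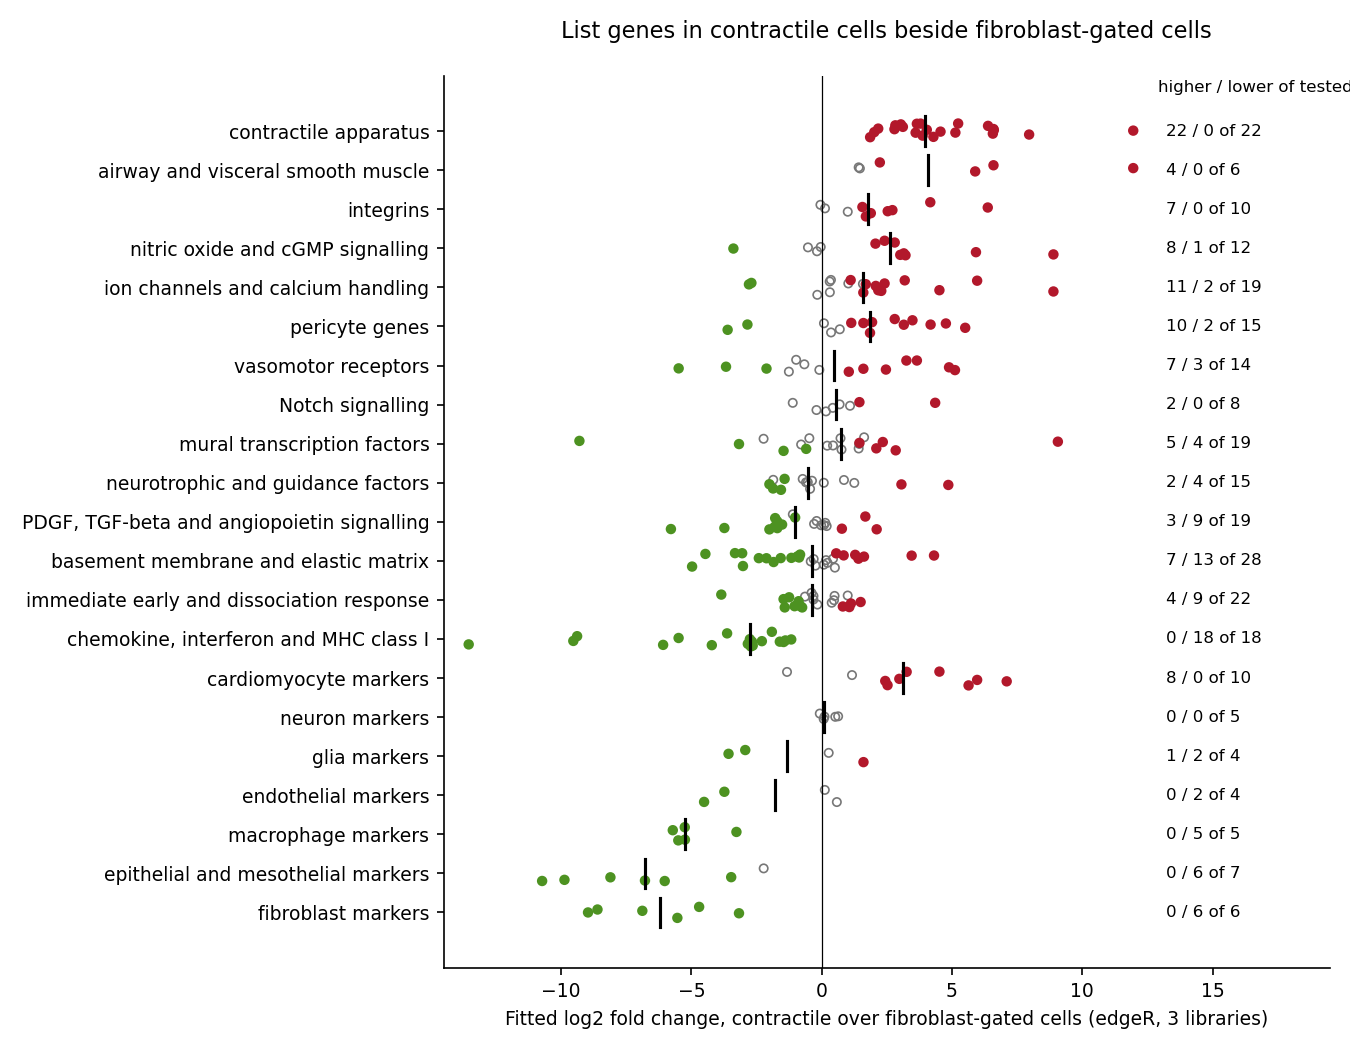
Fitted log2 fold change of each tested list gene, contractile over fibroblast-gated cells (x axis), by list (y axis), with filled points past an edgeR adjusted p of 0.05, open points not past it, and a bar at the list's median. The contractile apparatus lies wholly to the right (22 of 22 higher) and the chemokine, interferon and MHC class I list wholly to the left (18 of 18 lower). Fold changes of genes at 0 in a class depend on the fit and are not bounds.

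The nitric oxide and cGMP pathway, through which nerves and endothelium relax smooth muscle, had 8 of 12 genes higher and 1 lower. Gucy1a1 had 811, 712 and 429 CPM in contractile cells, against 87.1, 70.9 and 122 CPM in fibroblast-gated cells. Pde5a, the phosphodiesterase that breaks down cGMP, had 98.3, 277 and 168 CPM against 26.4, 24.6 and 13.3 CPM. Downstream, the kinase gene Prkg1 was higher by 2.06 (SE 0.36) and its substrate gene Mrvi1 by 5.92 (SE 0.38). The lower gene was Npr3, the clearance receptor of natriuretic peptides, at -3.39 (SE 0.59).

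Ion channels and calcium handling genes had 11 of 19 higher and 2 lower. Kcnmb1, the smooth muscle subunit of the BK potassium channel, had 172, 104 and 122 CPM in contractile cells and 0 UMIs in fibroblast-gated cells (at least 90.2-fold higher). Pln, phospholamban, and Atp2a2, the calcium pump it inhibits, were higher by 5.97 (SE 0.37) and 2.07 (SE 0.21). Pln and Ryr2 are also cardiomyocyte markers, of which 8 of 10 were higher. Of these, Tnni3 and Ttn rested on the mixed library, at -1.38 and -0.56 without it. The mixed contractile barcode with 1 Myh11 UMI held 205 of 209 Tnni3, 857 of 858 Myl7 and 104 of 105 Myh6 UMIs of the mixed members. It also held 292 of their 505 Tnnt2 and 131 of their 235 Actc1 UMIs. The part of cardiomyocyte RNA in the other markers was not tested.

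Among receptors for vasoactive signals, 7 of 14 were higher and 3 lower. Ramp1 had 492, 372 and 465 CPM in contractile cells, against 5.28, 11.2 and 19.9 CPM in fibroblast-gated cells. Npy1r, the receptor through which neuropeptide Y of sympathetic nerves constricts vessels, had 172, 136 and 106 CPM against 7.91, 14.2 and 6.63 CPM. Both genes were higher in the contractile sum of each library, and how many of all tested genes were so was not counted. Tbxa2r, the thromboxane receptor, was higher by 3.25 (SE 0.52), and Chrm2, the muscarinic M2 acetylcholine receptor, by 4.89 (SE 0.45) although it was at 0 in anterior contractile cells. Ramp2, which pairs with the same receptor as Ramp1 to bind adrenomedullin, was lower, at -5.49 (SE 0.44). That shared receptor gene, Calcrl, did not pass, at 24.6, 9.07 and 19.9 CPM in contractile cells against 18.5, 7.46 and 28.7 CPM.

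Of 15 neurotrophic and guidance factors, 2 were higher and 4 lower. Nrtn, neurturin, a GDNF family ligand for parasympathetic neurons, had 156, 127 and 68.6 CPM in contractile cells, against 2.64, 2.98 and 6.63 CPM in fibroblast-gated cells (log2 fold change 4.86, SE 0.44, edgeR adjusted p = 2.5e-07). Ntf3, neurotrophin 3, had 115, 72.6 and 108 CPM against 7.91, 5.22 and 24.3 CPM. Both were higher in contractile cells of every library. Vegfa and Efnb1, an angiogenic factor and an ephrin, were lower, at -2.01 (SE 0.50) and -1.87 (SE 0.47).

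**Figure D3:**
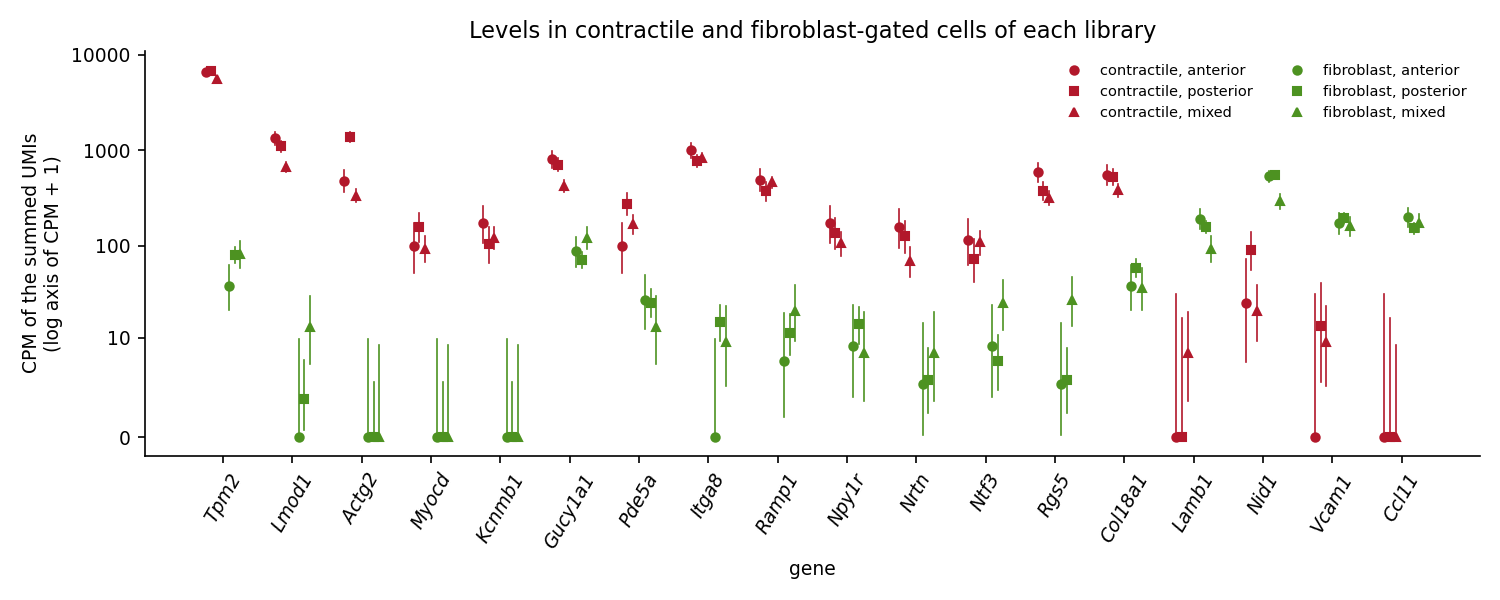
CPM of the summed UMIs of 18 genes (x axis) in contractile and fibroblast-gated cells of each library, on a log axis of CPM + 1, with exact 95% counting intervals as bars. Nrtn, Ntf3, Ramp1 and Npy1r lie higher in the contractile sum of every library, and Nid1, Vcam1 and Ccl11 lie lower.

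Matrix genes went both ways. Of 28 basement membrane and elastic matrix genes, 7 were higher and 13 lower. Col18a1, collagen XVIII of basement membranes, had 557, 531 and 383 CPM in contractile cells, against 36.9, 58.2 and 35.4 CPM in fibroblast-gated cells, and Lama5, a laminin chain gene, was higher by 4.31 (SE 0.55). Eln had 1147, 1297 and 905 CPM against 456, 653 and 239 CPM, but its direction turned to -2.17 (SE 0.48) when contractile cells were limited to those with fewer than 2 of the 6 fibroblast genes. The laminin genes Lamb1 and Lama2, the nidogen gene Nid1 and the fibulin gene Fbln2 were lower, at -4.98, -3.05, -3.33 and -4.46. Integrins, the receptors for these proteins, had 7 of 10 higher and none lower. Itga8 led them at 6.37 (SE 0.35).

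The chemokine, interferon and MHC class I list was lower in all 18 of its genes, with a median of -2.74. Complement C3 was at 0 in contractile cells and at 2717, 6207 and 1593 CPM in fibroblast-gated cells, at least 1228-fold lower. The eosinophil attractant gene Ccl11 was at least 43.8-fold lower, and Vcam1, a leukocyte adhesion molecule, was at 0, 13.6 and 8.85 CPM against 171, 196 and 161 CPM. Of markers of other classes, 5 of 5 macrophage, 6 of 7 epithelial and mesothelial and 2 of 4 endothelial genes were lower in contractile cells, and 0 of 5 neuron genes passed in either direction. Immediate early genes, which respond to dissociation, had 4 of 22 higher and 9 lower, and Fos did not pass, at 6112, 3755 and 3773 CPM in contractile cells against 3952, 3971 and 2537 CPM. Of PDGF, TGF-beta and angiopoietin genes, 3 of 19 were higher and 9 lower, with Pdgfa higher by 2.11 (SE 0.26) and Igf1 lower, at -5.79 (SE 0.37).

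Pericyte genes were compared in the contractile cells too, where 10 of 15 were higher than in fibroblast-gated cells and 2 lower. Rgs5 had 590, 376 and 316 CPM in contractile cells against 2.64, 2.98 and 26.5 CPM. The gap junction gene Gja4 was higher by 4.77 (SE 0.62) and Mcam by 4.18 (SE 0.36), while Steap4 was lower, at -3.61 (SE 0.53). Pdgfrb did not pass, with 123, 99.8 and 90.7 CPM in contractile cells against 111, 93.3 and 92.8 CPM. Postn, on the same list, was higher by 1.13 (SE 0.25), but was at -1.41 with fewer than 2 fibroblast genes allowed.

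Anterior and posterior members were set side by side with 1 library each and no test. Over all members, 38 of 1261 genes with at least 50 UMIs (3.01%) were past 2-fold higher in the anterior library and 50 (3.97%) past 2-fold lower, on CPM with 10 added. The 6 highest were Nppa, Tnni3, Cox6a2, Myl4, Tnnc1 and Csrp3, genes of heart muscle, and the undetermined anterior barcode held 881 of 887 Nppa UMIs and 166 of 173 Tnni3 UMIs. In contractile cells alone, 19 of 1050 genes (1.81%) were higher and 43 (4.1%) lower.

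Genes higher in anterior contractile cells included Mt1, a metallothionein gene, with 2302 CPM in the anterior and 540 in the posterior cells (4.27-fold, 95% interval 3.43 to 5.33), and Id3, an inhibitor of helix-loop-helix factors, with 2294 and 671 CPM (3.42-fold, 2.79 to 4.20). Mt1 was also higher in anterior fibroblast-gated cells, at 7084 CPM against 3200 CPM, and so was Id3, at 2140 against 1154 CPM. In the 4 and 4 pericytes the log2 ratios went the other way, at -2.60 for Mt1 and -0.31 for Id3. Sost, the gene of the Wnt inhibitor sclerostin, had 639 CPM in anterior and 218 in posterior contractile cells (2.94-fold, 2.02 to 4.30) and was at 0 in both fibroblast sums. Klf2, a flow-responsive transcription factor gene, had 885 and 336 CPM. Its log2 ratio over all members was -0.29, however, without cells that had at least 3 detected markers of another class.

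Genes lower in anterior contractile cells differed in how many posterior cells held them. Thbs1, which encodes the matrix protein thrombospondin 1, had 24.6 CPM in anterior and 345 in posterior cells, and was detected in 2 of 22 anterior and 19 of 33 posterior cells. Gpx3, a secreted glutathione peroxidase gene, had 0 UMIs in anterior cells and 258 CPM in posterior cells, from 11 cells. Of its 57 posterior UMIs, however, 46 lay in only 3 of those cells. Fibroblast-gated cells of both libraries exceeded this Gpx3 level (anterior 1010 CPM, posterior 775 CPM). Chrm2 had 0 UMIs in 22 anterior cells and 485 CPM in posterior cells, and Sbspon 0 UMIs and 358 CPM, each from 9 posterior cells. Against a floor of 3 counts in the anterior sum, Chrm2 was at least 19.7-fold lower and Sbspon at least 14.6-fold. The exact intervals reach somewhat closer, to 15.8-fold for Chrm2 and 11.6-fold for Sbspon. Actc1, cardiac actin, had 131 and 1723 CPM, and Rgs2, a regulator of G protein signalling, 16.4 and 503 CPM. The cells that had at least 3 of 7 airway and visceral genes (2 of 22 anterior and 12 of 33 posterior) were then left out. The log2 ratios were -3.72 for Thbs1, -3.37 for Gpx3, -2.43 for Actc1, -2.39 for Chrm2, -2.15 for Rgs2 and -2.14 for Sbspon. All were past 2-fold, but they were taken without the minimum of 50 UMIs. The posterior cells left held 11 UMIs of Gpx3, 9 of Rgs2, 5 of Chrm2 and 4 of Sbspon. Chrm2 and Sbspon were each in 2 of those cells. With so few UMIs, the sizes depend on the 10 CPM added. In that setting 27 of 652 genes with at least 50 UMIs (4.14%) were lower and 21 (3.22%) higher. Over all contractile cells, 0 of 21 contractile apparatus genes were past 2-fold higher and 3 lower. Both airway and visceral genes compared there were lower: Actg2 at 483 and 1379 CPM, and Des, the desmin gene, at 320 and 3070 CPM. Both are on the contractile apparatus list too, so they are among its 3 lower genes and the counts are not separate. Without the airway-gene cells, 1 of 21 contractile apparatus genes and 1 of 2 airway and visceral genes were lower. Those cells were picked on airway and visceral genes, Des and Actg2 among them. The smaller counts therefore partly follow from the choice of cells.

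**Figure D4:**
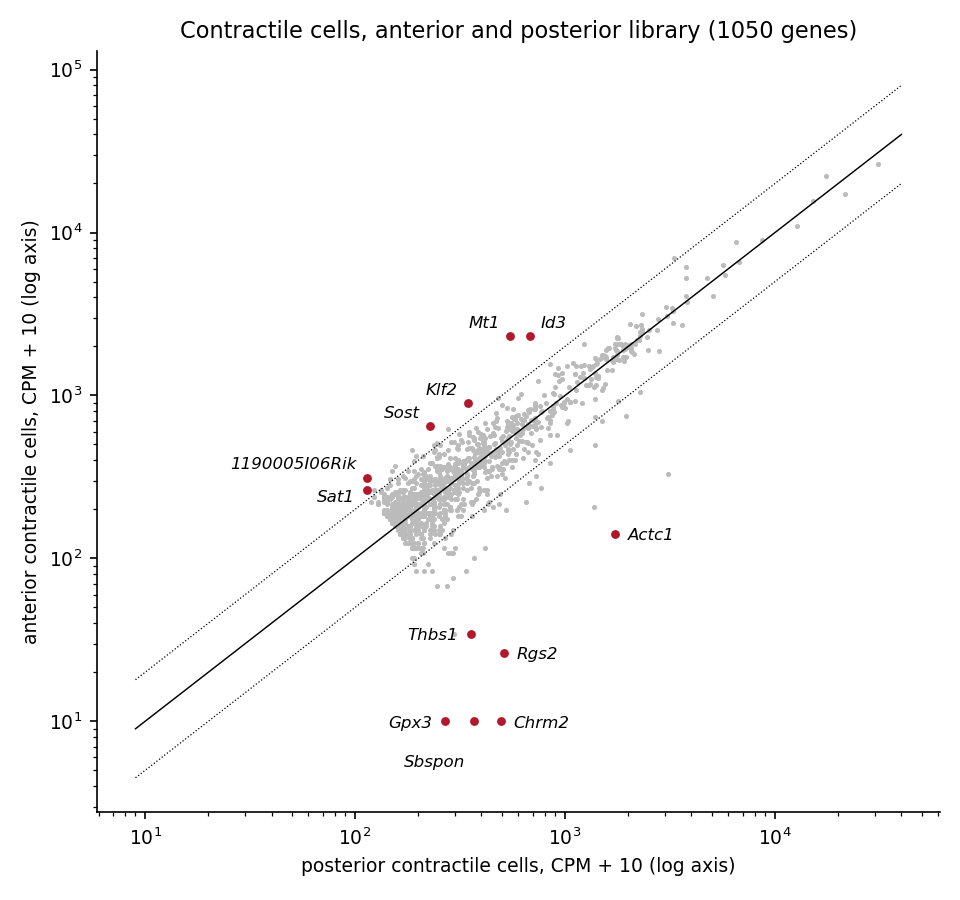
CPM + 10 of 1050 genes in posterior (x axis) and anterior (y axis) contractile cells, both on log axes, with equality as a solid line and 2-fold limits dotted. Red points are the 12 genes named by rule, with Mt1 and Id3 above the upper limit and Chrm2, Sbspon and Gpx3 at 0 in the anterior cells.

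The posterior values of Chrm2 and Sbspon came from the same cells. Both genes were detected together in 0 of 22 anterior (0 to 15.4%), 9 of 33 posterior (27.3%, 13.3 to 45.5) and 3 of 85 mixed contractile cells (3.53%, 0.734 to 9.97). These cells were picked after their values were seen, so what follows is a description. The 9 posterior cells had a median depth of 7939 UMIs, and the 24 other posterior contractile cells one of 7302 UMIs, with 0 UMIs of either gene.

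The 9 cells also shared other genes, which were chosen after their values in posterior contractile cells were seen. Des had 19 to 145 UMIs per cell (median 63) in the 9, against 0 to 14 (median 2.5) in the other 24. Tnnt2, cardiac troponin T, had 2 to 65 UMIs (median 32) against 0 to 9 (median 0). Rgs2 was detected in all 9, with a median of 9 UMIs, and in 4 of the other 24. Notch3 was the reverse, at 0 UMIs in the 9 cells and 311 CPM in the others, and Rgs5 had 1 UMI in the 9 cells, or 15.9 CPM, against 521 CPM. The 3 mixed cells had Des at 4902 CPM against 376 CPM in the other 82, and Notch3 at 0 against 94.6 CPM. With only 18360 UMIs in the 3 cells, that difference in Notch3 could not be resolved.

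Cardiomyocyte markers went different ways in the 9 cells. Beside Tnnt2, Actc1 had 5472 CPM in the 9 cells and 222 in the other 24, and Pln had 25 UMIs in 6 of the 9 cells, 17 of them in 1 cell (397 CPM), against 69.9 CPM in the others. Tnni3 and Nppa had 0 UMIs, and Myh6 and Myl7 had 2 UMIs each. Acta2 and Myh11 were high, with medians of 167 and 41 UMIs per cell against 85.5 and 22 in the other posterior cells. Of the 7 airway and visceral smooth muscle genes, at least 3 were detected in 2 of 22 anterior, 12 of 33 posterior and 12 of 85 mixed contractile cells. After thinning to 1000 UMIs these were 0, 4 and 0 cells, so depth entered the count.

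**Figure D5:**
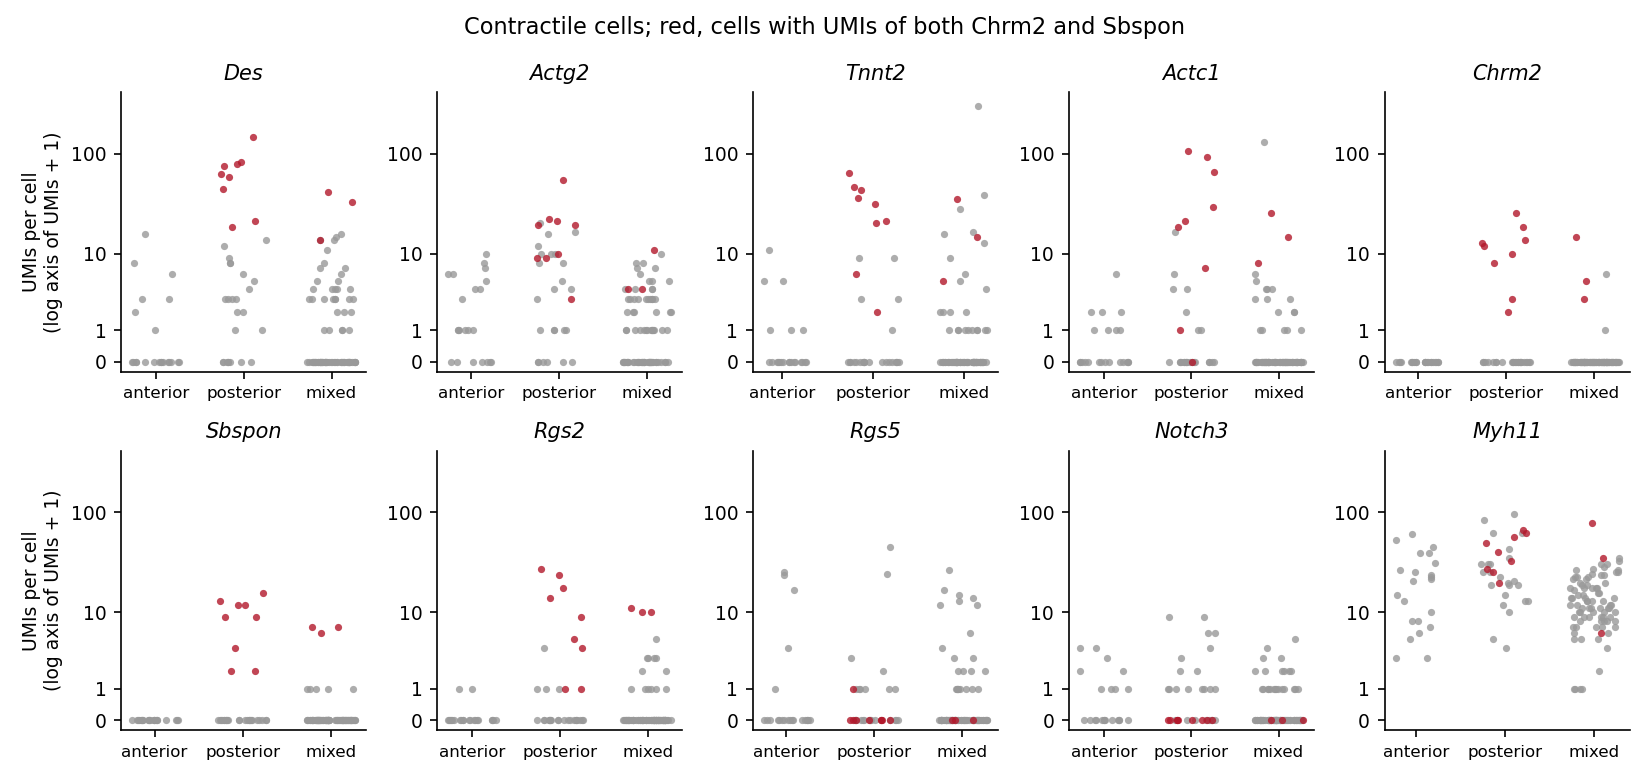
UMIs per cell of 10 genes (log axis of UMIs + 1, y axis) in each contractile cell of the anterior, posterior and mixed library (x axis, jittered), with cells that hold both Chrm2 and Sbspon in red. The 9 red posterior cells have 19 to 145 Des UMIs and no Notch3 UMI.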

How the data were processed

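Single-cell 3′ RNA libraries of sorted atrial cells were analysed from the deposited count matrices, which hold raw UMI counts per gene and barcode (whole numbers, not normalized). Per the file headers, the anterior and posterior matrices (32285 features) were written by Cell Ranger 6.1.2 and the mixed matrix (31064 features) by Cell Ranger 3.1.0. The submitters' processing notes name Cell Ranger 7.1.0, Seurat 4.4.2 and mm10, and the difference from the headers was not resolved. The gene sets differ, so single genes can be affected between the mixed and the other libraries.

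The members, gene lists and classes were chosen with earlier results of these data known. Named genes followed fixed rules: the gate genes, the 15 leading genes, up to 4 members of each list past the threshold in each direction (otherwise those of highest CPM), and for anterior against posterior the 6 highest and 6 lowest. Other genes named (Chrm2-positive cell subset, Fabp4, Vtn, Calcrl, Srf and similar) were chosen after their values were seen. A planned test of contractile cells against pericytes was not made, since no library had 5 pericytes, and the comparison with fibroblast-gated cells was added afterwards.

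Counts were summed per library and class and scaled to CPM over all UMIs of the class. Sums were tested with edgeR 4.0.16 (R 4.3.3; TMM, quasi-likelihood, at least 30 UMIs over the 6 sums, Benjamini-Hochberg adjustment at 0.05 over all genes tested), with library as a block because both classes of a library come from the same tissue preparation. P-values are set against how the difference between the classes varied over 3 libraries only. On simulated counts for that comparison (8758 genes), 75.3% of 198 genes changed 4-fold were found and 3.25% of calls were false. The simulation used a fixed, assumed dispersion, the same gene means in every library and far fewer changed genes than were called. Its rates are therefore not the error rates of the real calls. DESeq2 1.42.0 was an alternative. Anterior and posterior sums have exact conditional Poisson intervals, and shares have exact Clopper-Pearson intervals, both at 95%. Scrublet ran in scanpy 1.11.5 at an expected rate of 0.03. Cells with at least 3 detected markers of another class (other-class cells, 38 of 152 members) were kept, and left out as an alternative. That alternative also cut the posterior contractile cells with at least 3 of 7 airway and visceral genes from 12 to 5.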

Additional observations from a re-analysis of the deposited data

How the results depend on the processing

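The 1925 calls between contractile and fibroblast-gated cells used library as a block, since both classes come from the same library. With no replicate block there were 1442 calls. Leaving out 1 library at a time gave 1459 to 1563. DESeq2 made 931 calls, thinning to 1000 UMIs 614 of 2665 genes tested, and fewer than 2 of 6 fibroblast genes 1000, of which 4 were in the opposite direction. For the other settings, 1522 to 2130 genes were called. Under fewer than 2 fibroblast genes, the log2 fold change reversed for Postn (-1.41), Ccn1 (-0.22), Heyl (-0.10), Igfbp7 (-0.35), Eln (-2.17), Col4a1 (-0.37), Ccn2 (-2.03), Fabp7 (-1.55) and Col4a5 (-0.059). Eln and Ccn2 then passed in the opposite direction. Tnni3 reversed without other-class cells (-2.61), and with at least 4 gate genes (-0.88). Ttn reversed with at least 4 gate genes (-0.55). Leaving out 1 library gave -1.38 to 3.78 for Tnni3, -0.56 to 4.15 for Ttn and -0.17 to 2.16 for Fabp7, lowest without the mixed library in each case. Without other-class cells, S1pr3 was at -0.21. The cause was not tested.

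Member counts moved most with the fibroblast limit: at fewer than 2 genes there were 9 anterior, 5 posterior and 25 mixed members, of which 7, 5 and 23 were contractile. Without other-class cells there were 15 anterior and 22 posterior members (13 and 19 contractile). Requiring no Kcnj8 or Abcc9 UMI left 20 posterior and 57 mixed contractile cells. Pericytes fell to 1 anterior and 0 mixed at 4 gate genes, and to 1 anterior and 0 posterior at fewer than 2 fibroblast genes. The alternatives of the contractile against pericyte test were not run, as the test itself was not.

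Of the 88 genes past 2-fold between anterior and posterior members, a pseudocount of 50 CPM left 57, a minimum of 20 UMIs gave 287, pericytes alone 22, thinning 15, no other-class cells 51, and contractile cells without airway-gene cells 48. The 19 list genes past 2-fold became 40, 3, 8, 11 and 8 at a minimum of 20 UMIs, in pericytes alone, under thinning, without other-class cells and without airway-gene cells. Id3 reversed at -0.31 and Mt1 at -2.60 in pericytes, and Klf2 at -0.29 without other-class cells. At a pseudocount of 50 CPM, 9 of the 15 leading genes were shared. The contractile share was 35% for Notch3 without thinning, and for Kcnj8 6.82% at 2000 UMIs and 20% unthinned. Depth limits what can be seen in pericytes most, since they are 10 cells.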
